A study of Mus musculus with 16 samples.

Results

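The activating transcription factor ATF4 and 9 genes of the amino acid stress response that it controls were followed in the cerebral cortex of 5xFAD mice fed rapamycin or a vehicle diet. The 10 genes, Atf4, Ddit3, Trib3, Chac1, Sesn2, Asns, Phgdh, Psat1, Shmt2 and Mthfd2, were taken by their symbols from a table of read pair counts for 47593 genes. All 10 were listed, and all 10 passed the filter on low counts that left 16553 genes for testing.

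The 16 libraries come from cortex of heterozygous 5xFAD mice on a C57BL/6-SJL hybrid background. All animals, on vehicle as well as on rapamycin, carry the transgenes of this line, among them human APP with the Swedish, Florida and London mutations, driven by the neuron-specific Thy1 promoter, and they form amyloid plaques from an early age. Chow with microencapsulated rapamycin, an inhibitor of the kinase mTOR, or chow with the empty carrier was given from 2 to 5 months of age. The groups are female control (FC) and male control (MC) on vehicle, and female rapamycin (FR) and male rapamycin (MR), with 4 libraries each. No wild-type mice and no mice without the drug carrier were analysed here, so the effect of the transgenes themselves is outside these comparisons. The study's text speaks of cortical samples that were pooled from several mice. Its figure legends for the sequencing give 4 mice per group, and the labels name 4 libraries per group. The number of animals behind a library is therefore not certain, and the p values measure the spread between libraries.

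ATF4 is made from an mRNA that is present in unstressed cells but is translated mainly when the initiation factor eIF2alpha is phosphorylated. The kinases that do so sense uncharged tRNA (GCN2), unfolded proteins in the endoplasmic reticulum (PERK), double-stranded RNA (PKR) or lack of haem (HRI), and active mTOR complex also raises ATF4 without them. ATF4 then dimerises with C/EBP-family partners on composite C/EBP-ATF response elements and switches on amino acid synthesis, amino acid transport, aminoacyl-tRNA synthetases and, under lasting stress, the factor CHOP. In the brain the enzymes of serine synthesis are found chiefly in astrocytes, which supply serine to neurons. Since the ATF4 step is translational, the mRNA of Atf4 measured here is not a measure of ATF4 protein.

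The response element was searched in the RefSeq promoters (GRCm38.p6, 250 bases before to 50 bases after each start), to which all 10 genes matched. The letters TGATGNAA, on either strand, stand in 3.97% of 32851 promoters and in those of Asns, Chac1 and Trib3. The 2 stretches that follow show it, in capitals, in the Asns promoter (chr6:7693214-7693243, minus strand, 23 to 16 bases before the start) and in the Chac1 promoter (chr2:119351038-119351067, plus strand, 193 to 186 bases before the start, where it reads on the opposite strand). In Trib3 the match lies 14 to 21 bases after the start.
Asns: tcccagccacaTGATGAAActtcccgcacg
Chac1: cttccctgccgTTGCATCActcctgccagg
The stricter form TGATGCAA, which is contained in the first, stands in 0.895% of promoters and among the 10 genes in Chac1 alone. The GC box GGGCGG, a motif of many promoters, stands in 35.7% of them and in 5 of the 10 genes, namely Asns, Chac1, Psat1, Sesn2 and Trib3. Bases 150 to 51 before the start are shown for Phgdh (chr3:98340020-98340119, minus strand) and Psat1 (chr19:15925110-15925209, minus strand, from 1 of its 2 listed starts), the genes that the diet comparison called. These letters hold no match to TGATGNAA, which says only that the motif is not in this window. The GC box of Psat1 is not in them either, as it lies in the promoter of the other listed start (chr19:15924573-15924872).
Phgdh: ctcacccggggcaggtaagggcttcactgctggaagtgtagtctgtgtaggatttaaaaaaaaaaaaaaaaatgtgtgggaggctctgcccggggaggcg
Psat1: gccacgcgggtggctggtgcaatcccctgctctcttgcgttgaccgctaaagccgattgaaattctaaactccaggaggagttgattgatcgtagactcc

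The libraries held between 16393501 and 20593089 counted read pairs. By their labels 5 libraries, FC4, FR4, FR5, MC4 and MR4, formed batch 2 and the other 11 batch 1. The library labelled MR4 carries 9935 read pairs on Xist and 0 on 4 Y-linked genes, against 1 to 17 and 1915 to 2231 in the other male libraries, so it goes against its label, and results are also given without it. The libraries differed in how expression followed exon length. The slope on log2 exon length, fitted to the deviations of log2 CPM from each gene's mean, lay between 0.000395 and 0.1005 in the 8 vehicle libraries and between -0.127 and 0.0640 in the 8 rapamycin libraries, and was lowest in FR2, MR2 and FR1 (-0.127, -0.122 and -0.121). Mitochondrial transcripts took 2.64% to 5.47% of read pairs on vehicle and 3.75% to 6.99% on rapamycin, most in the same 3 libraries (6.88% to 6.99%). The labelled tissue held its markers: the cortical neuron genes Slc17a7 and Tbr1 had at least 19167 and 2124 read pairs in every library.

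The members spanned a wide range of expression. Per exon length, as RPKM over all 16 libraries, Atf4 stood highest at 75.3 ± 13.4 (SD, n = 16), followed by Asns at 43.8 ± 8.25. The serine synthesis enzymes Phgdh (32.5 ± 4.73 RPKM) and Psat1 (31.2 ± 5.50 RPKM) came next. They did not differ beyond their spread, and both overlapped with Asns in it. Ddit3 stood at 15.0 ± 1.95 RPKM. Shmt2 (8.33 ± 1.22 RPKM) and Chac1 (6.19 ± 1.26 RPKM) overlapped in their spread, and so did Chac1 and Sesn2 (5.00 ± 0.264 RPKM). Mthfd2 stood at 2.52 ± 0.424 RPKM. Trib3, a pseudokinase that is induced late in the response, stood at 0.317 ± 0.131 RPKM with only 5 to 22 read pairs per library. At this depth only large changes of Trib3 could be detected.

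**Figure D1:**
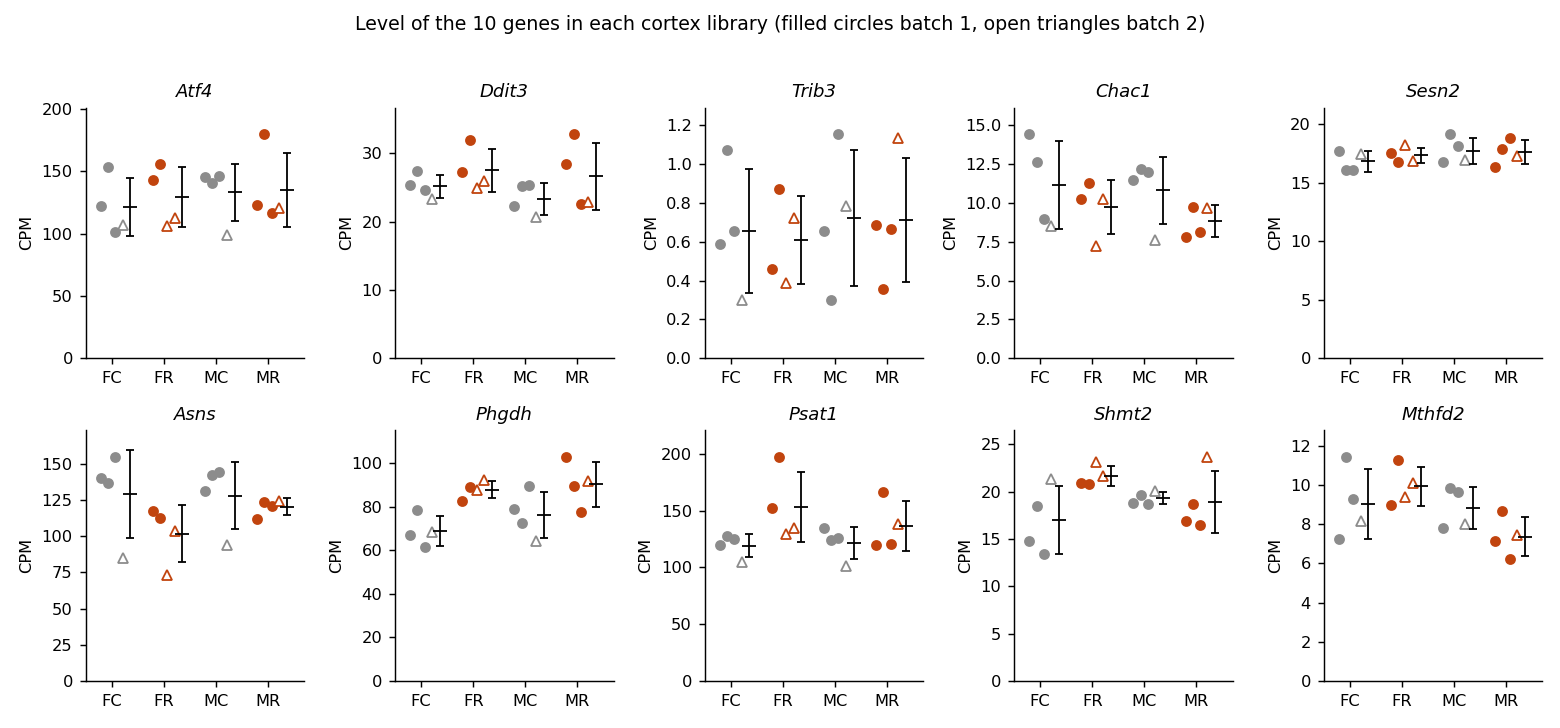
Level of each of the 10 genes in CPM (read pairs of the gene scaled to library size, linear axes from 0) in the 16 cortex libraries, by group. FC and FR are labelled female, MC and MR labelled male, with vehicle in grey and rapamycin in orange. Filled circles are batch 1, open triangles batch 2, and the black dash with bars is the mean ± SD of 4 libraries. All 4 FR libraries lie above all 4 FC libraries for Phgdh and Psat1. The libraries labelled male overlap for these genes, and Sesn2 stays between 16.1 and 19.1 CPM throughout.

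With both sexes in the fit, 2 of the 10 genes were higher on rapamycin than on vehicle, and none was lower. These were Phgdh and Psat1, the enzymes of the opening steps of serine synthesis from 3-phosphoglycerate. In the same comparison 13.3% of all 16553 genes were called at an adjusted p under 0.05, and 6.46% were called as higher, so a call was common among all genes. At an unadjusted p under 0.05 stood 3 of the 10 genes and 30.4% of all. Neither of the called genes changed by 1.5-fold, a size that 2.26% of all genes reached together with an adjusted p under 0.05. The median log2 fold change of the 10 genes was 0.06, and that of all genes tested 0.02. As these are libraries of whole cortex, fewer cells of a type and less RNA per cell cannot be told apart.

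Phgdh, phosphoglycerate dehydrogenase (chr3:98313170-98339990, minus strand), measured 67.0, 78.4, 61.6 and 68.1 CPM in FC1 to FC4 and 82.5, 89.1, 87.6 and 92.2 CPM in FR1, FR2, FR4 and FR5. In males it measured 79.0, 72.7, 89.3 and 64.0 CPM in MC1 to MC4 and 103, 89.2, 77.5 and 91.8 CPM in MR1 to MR4. The 4 female rapamycin libraries all lay above the 4 female controls, whereas in males MC1, MC3, MR2 and MR3 lay where the diets overlapped. The means were 72.5 ± 9.26 CPM on vehicle and 89.1 ± 7.38 CPM on rapamycin (SD, n = 8 each). The log2 fold change was 0.30 with a standard error of 0.08 (edgeR quasi-likelihood test with sex and batch as terms, Benjamini-Hochberg adjusted p = 0.0235). The call was kept in 14 of 16 fits that left out 1 library each and was lost without FR2 or MC4 (highest adjusted p = 0.0633), and it was kept without MR4 (log2 fold change 0.30, adjusted p = 0.0377).

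Psat1, phosphoserine aminotransferase (chr19:15904678-15947337, minus strand), measured 119.7, 127, 125 and 105 CPM in FC1 to FC4 and 152, 197, 129 and 135 CPM in FR1, FR2, FR4 and FR5. In males it measured 135, 125, 126 and 101 CPM in MC1 to MC4 and 120.2, 167, 121 and 138 CPM in MR1 to MR4. The female rapamycin libraries again all lay above the female controls, and in males MR1 and MR3 lay within the vehicle range. The means were 120.4 ± 11.7 CPM on vehicle and 145 ± 26.4 CPM on rapamycin (SD, n = 8 each), with a log2 fold change of 0.30, a standard error of 0.09 and an adjusted p of 0.0355 (edgeR). The 3 highest libraries, FR2, MR2 and FR1, are those with the lowest exon length slopes and the highest mitochondrial shares. This call was the less stable: it was kept in 5 of 16 fits that left out 1 library (FR4, MC1, MC3, MR1 or MR3) and lost in the other 11, among them that without MR4 (log2 fold change 0.28, adjusted p = 0.0637).

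The calls, and for Psat1 the size of the difference, depended on which further terms and which libraries entered the fit. The exon length slope and the mitochondrial share come from the same counts. Their medians were 0.0255 and 3.74% on vehicle and -0.0244 and 4.88% on rapamycin, so a term for either overlaps with that for the diet. Whether the 2 measures are technical was not tested. With the exon length slope of each library as a further term the log2 fold change was 0.01 for Psat1 and 0.23 for Phgdh, and with the mitochondrial share it was 0.07 for Psat1 and 0.33 for Phgdh. In either fit 0 of 16553 genes passed in edgeR, with 965 and 1318 genes at an unadjusted p under 0.05. Without FR1, FR2 and MR2 the log2 fold change was 0.14 for Psat1 and 0.33 for Phgdh, and 1 gene of all was called. Under these 3 settings Phgdh lay between 0.23 and 0.33 and Psat1 between 0.01 and 0.14, and neither passed the threshold. Phgdh and Psat1 are enriched in astrocytes, so the astrocyte markers are given beside them. Of 8 astrocyte markers 2 were called higher, Aldoc (log2 fold change 0.40, adjusted p = 0.0104) and Acsbg1 (0.29, adjusted p = 0.0311), and 4 of the 8 had positive and 4 negative values, from -0.42 to 0.40. The 8 summed to between 4640 and 6681 CPM on vehicle and between 4274 and 7189 CPM on rapamycin, and their part in the result was not tested.

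**Figure D2:**
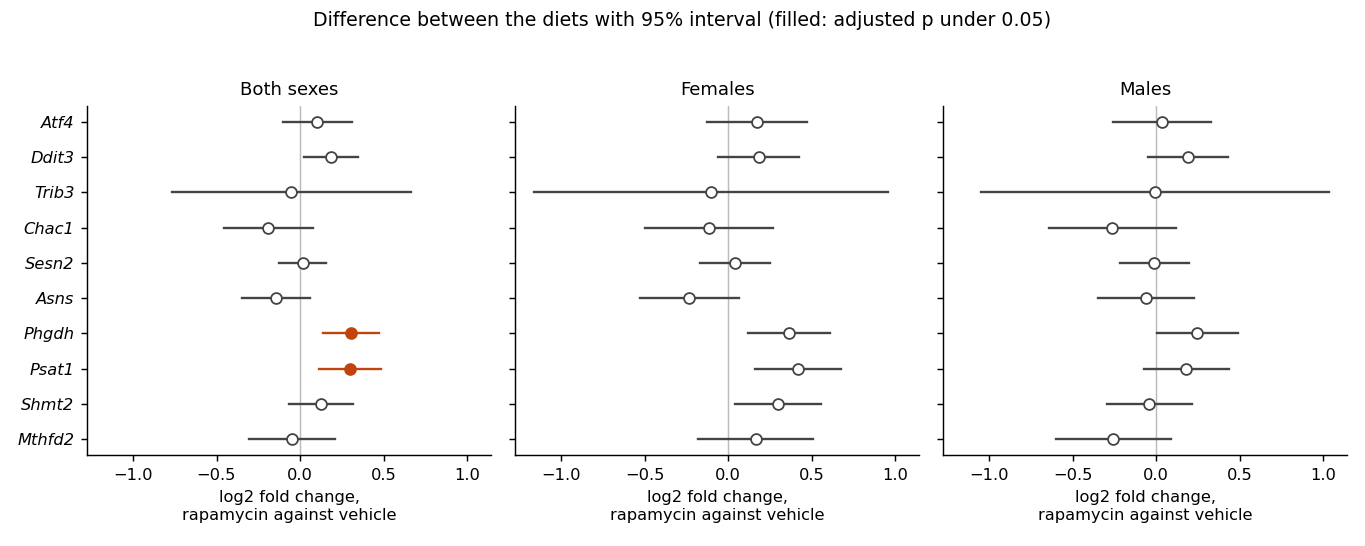
Log2 fold change of each gene, rapamycin against vehicle, with its 95% interval, for both sexes (16 libraries), for females and for males. The values for females and for males compare 4 with 4 libraries within a fit of all 16 libraries by group and batch. Filled orange points have an adjusted p under 0.05: Phgdh and Psat1 in the fit of both sexes, with intervals from 0.14 to 0.47 and from 0.11 to 0.48. For females and for males no point is filled.

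The remaining enzymes of the serine and folate branch did not pass. Shmt2, the mitochondrial hydroxymethyltransferase that splits serine into glycine and a folate-bound carbon (chr10:127517123-127522444, minus strand), ranged from 13.4 to 21.3 CPM on vehicle (median 18.8) and from 16.5 to 23.6 CPM on rapamycin (median 20.8), with a log2 fold change of 0.13 (95% interval -0.07 to 0.32, adjusted p = 0.375). Mthfd2, which oxidises that carbon in mitochondria, ranged from 7.23 to 11.4 CPM on vehicle and from 6.21 to 11.3 CPM on rapamycin. Its log2 fold change was -0.05 (95% interval -0.31 to 0.21, adjusted p = 0.826). The diets overlapped for both genes.

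Atf4 itself (chr15:80255184-80257540, plus strand) measured 122, 154, 102 and 107 CPM in FC1 to FC4 and 143, 156, 106 and 113 CPM in FR1, FR2, FR4 and FR5. In males it measured 146, 141, 146 and 99.1 CPM in MC1 to MC4 and 123, 179.8, 117 and 121 CPM in MR1 to MR4. The diets overlapped in both sexes, and the lowest library of FR and of MC was one of batch 2. The log2 fold change was 0.10 with a 95% interval from -0.10 to 0.31 (adjusted p = 0.507), so a change of Atf4 mRNA by 1.5-fold in either direction, 0.58 on this scale, lies outside the interval. The direction was not stable: it was the same in 8 of 12 alternatives, and the value fell below 0 with exon length offsets (-0.067), with a term for the slope on exon length (-0.26) or for mitochondrial transcripts (-0.061), and without FR1, FR2 and MR2 (-0.054), with no call in any of them.

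Ddit3, which encodes CHOP, the factor of the late and pro-apoptotic arm, ranged from 20.6 to 27.4 CPM on vehicle (median 24.9) and from 22.6 to 32.8 CPM on rapamycin (median 26.6). The log2 fold change of 0.19 (95% interval 0.02 to 0.35) had an unadjusted p of 0.0272 and an adjusted p of 0.112 in edgeR, so it did not pass over all genes. Trib3, a target of CHOP and ATF4, ranged from 0.3003 to 1.15 CPM on vehicle and from 0.356 to 1.13 CPM on rapamycin (log2 fold change -0.05, standard error 0.34). Chac1, which degrades glutathione, ranged from 7.61 to 14.4 CPM on vehicle (median 11.7) and from 7.25 to 11.3 CPM on rapamycin (median 9.70), with a log2 fold change of -0.19 (95% interval -0.45 to 0.08, adjusted p = 0.330). Chac1 was called with exon length offsets (-0.37, adjusted p = 0.0491), was at -0.57 with the exon length slope as a term (adjusted p = 0.739) and at 0.18 in batch 2 alone (adjusted p = 0.854). Sesn2, a leucine sensor that restrains mTOR complex, had the narrowest interval of the 10 genes, from -0.13 to 0.16 around a log2 fold change of 0.02.

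Asns, the asparagine synthetase (chr6:7675169-7693254, minus strand), is the member whose values differed most between the batches. In batch 1 it measured 140.1, 137, 155, 131, 142 and 144 CPM in FC1, FC2, FC3, MC1, MC2 and MC3 and 117, 113, 112, 124 and 121 CPM in FR1, FR2, MR1, MR2 and MR3, and the 5 rapamycin libraries all lay below the 6 vehicle libraries. In batch 2 it measured 84.6 and 94.2 CPM in FC4 and MC4 and 73.2, 104 and 125 CPM in FR4, FR5 and the library labelled MR4, and the diets overlapped. Over all 16 libraries the log2 fold change was -0.14 with a standard error of 0.10 (adjusted p = 0.341), and without MR4 it was -0.20 (adjusted p = 0.10995). In a fit on batch 1 alone Asns was lower on rapamycin with a log2 fold change of -0.27 (adjusted p = 0.0431). That fit called 1240 of all genes, 671 of them lower. In batch 2 alone the value of Asns was 0.22 (adjusted p = 0.782).

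A difference between the batches in the effect of the diet was therefore tested across all genes, a test added after the values had been seen. For Asns the difference, batch 2 minus batch 1, was 0.47 with a standard error of 0.19 (unadjusted p = 0.0227, adjusted p = 0.914) and 0.28 without MR4, and for Chac1 it was 0.49 (adjusted p = 0.914). None of the 10 genes passed this test, against 0.0242% of all genes (4 of 16553), and 1 of the 10 had an unadjusted p under 0.05, as had 5.17% of all genes. DESeq2 gave 0 and 1. Asns was 1 of 10 genes with all rapamycin libraries below all vehicle libraries in batch 1, where 2.37% of all genes had this order and 2.22% the opposite one. In batch 2, with 2 against 3 libraries, Phgdh, Psat1 and Shmt2 had all rapamycin libraries above the vehicle libraries, an order that 13.3% of all genes had. Over all 16 libraries none of the 10 genes had ranges that were apart, as 0.127% of all genes had upward and 0.362% downward.

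**Figure D3:**
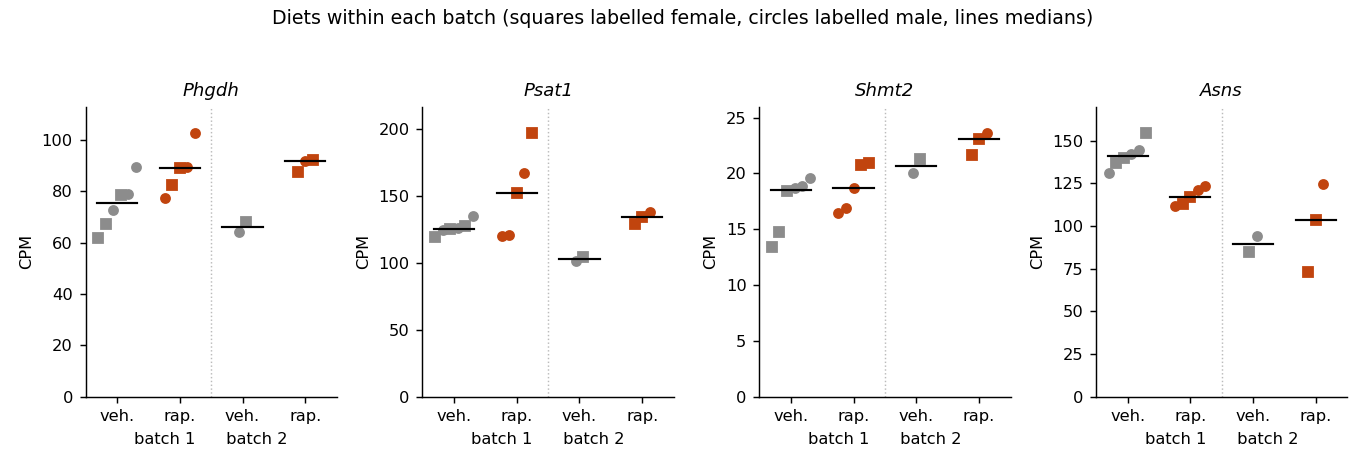
Level of Phgdh, Psat1, Shmt2 and Asns in CPM (linear axes from 0) by diet within each labelled batch, with 6 vehicle and 5 rapamycin libraries in batch 1 and 2 and 3 in batch 2. Squares are libraries labelled female, circles those labelled male, and lines medians. Asns on rapamycin lies below vehicle in batch 1 (112 to 124 against 131 to 155 CPM) and overlaps it in batch 2, while Phgdh, Psat1 and Shmt2 lie above vehicle in batch 2.

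The batches themselves separated several members. In the fit of both sexes, 3 of the 10 genes were lower in batch 2 and 1 was higher, where 35.5% of all genes were called, 16.5% lower and 19.1% higher. Asns was lower by a log2 fold change of -0.40 (adjusted p = 0.00765), Atf4 by -0.36 (adjusted p = 0.0168) and Ddit3 by -0.22 (adjusted p = 0.0481). Shmt2 was higher by 0.28 (adjusted p = 0.0366). The Asns call was kept in 16 of 16 fits that left out 1 library, that of Atf4 in 15 (lost without MC4), that of Shmt2 in 8 (lost without FC1, FC4, FR4, MC4, MR1, MR2, MR3 or MR4) and that of Ddit3 in 3 (kept without FC3, FR1 or MR3). With the exon length slope as a term only Shmt2 was called, at 0.46 (adjusted p = 0.0192).

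The study also asked whether the sexes respond differently. In females none of the 10 genes passed, where 0.0121% of all genes (2 of 16553) did, although 3 of the 10 had an unadjusted p under 0.05, as had 23.1% of all genes. Psat1 had a log2 fold change of 0.42 with a standard error of 0.12 (adjusted p = 0.0800), Phgdh of 0.37 with a standard error of 0.12 (adjusted p = 0.0888) and Shmt2 of 0.30 with a standard error of 0.12 (adjusted p = 0.152). The female ranges of Phgdh and Psat1 were apart upward, as they were for 2.13% of all genes, with 3.65% apart downward. DESeq2 called Psat1 and Phgdh in females (adjusted p = 0.0349 and 0.0441), among 1305 of all 16553 genes that it called. In edgeR without FR4, 1 member, Psat1, was called (adjusted p = 0.0338), among 2104 of all genes.

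In males 0 of the 10 genes passed, as did 0 of all 16553 genes (0%), and 1 of the 10, Phgdh, had an unadjusted p under 0.05, against 12% of all genes; DESeq2 gave 0 and 1. Phgdh had a log2 fold change of 0.25 with a standard error of 0.11 (adjusted p = 0.407), and Psat1 of 0.18 with a standard error of 0.12 (adjusted p = 0.547). Mthfd2 was at -0.26 (adjusted p = 0.522) and Chac1 at -0.26 (adjusted p = 0.554). Without MR4 the log2 fold change was 0.22 for Phgdh (adjusted p = 0.712) and 0.08 for Psat1 (adjusted p = 0.876). None of the 10 genes had male ranges that were apart, as 2.82% of all genes had upward and 3.3% downward. For Shmt2 this rested on MR4, at 23.6 CPM. MR1 to MR3 measured 16.5 to 18.676 CPM, below MC1 to MC4 at 18.6777 to 20.1 CPM. The share of all genes with such an order without MR4 was not counted.

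The difference between the sexes in the effect of the diet passed for 0 of the 10 genes, as for 0 of all genes (0%), in edgeR and for 0 of the 10 in DESeq2, and none of the 10 had an unadjusted p under 0.05 in either, which 2.17% of all genes had in edgeR. The largest values were 0.42 for Mthfd2 (95% interval -0.07 to 0.91), 0.34 for Shmt2 (-0.02 to 0.70) and 0.24 for Psat1 (-0.12 to 0.60), females minus males on the log2 scale, and without MR4 that of Psat1 was 0.36. Over 9 alternatives Mthfd2 lay between 0.35 and 0.43, Shmt2 between 0.27 and 0.56 and Psat1 between 0.13 and 0.41, with no call. In batch 1 alone, which does not hold MR4, 1 of the 10 genes and 1022 of all had an unadjusted p under 0.05 in edgeR. On vehicle, the difference between females and males passed for none of the 10 genes, where 2 of all genes (0.0121%) passed, and none of the 10 had an unadjusted p under 0.05 in edgeR (3.55% of all genes) or DESeq2. The point estimates lay between -0.20 for Shmt2 (95% interval -0.45 to 0.05) and 0.11 for Ddit3 (-0.13 to 0.35). Trib3 had the widest interval, from -1.16 to 0.89.

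The other genes of the pathway were counted by role in the fit of both sexes, beside the background of 6.46% higher and 6.86% lower. Upstream of ATF4, among 9 genes of the eIF2alpha kinases, phosphatases and GCN2 partners, 0 were higher and 3 were lower. Eif2ak2, the kinase PKR that responds to double-stranded RNA, was lower at a log2 fold change of -0.55 (adjusted p = 0.0328). Eif2ak3, the kinase PERK, was lower at -0.29 (adjusted p = 0.0331), and Gcn1l1, an activator of GCN2, at -0.24 (adjusted p = 0.0440). These calls were kept in 7, 7 and 3 of 16 fits that left out 1 library and in 4, 4 and 3 of 12 alternatives, in which Eif2ak3 reached -0.035, and Gcn1l1 was at 0.026 once the trend with exon length was removed. Eif2ak4, the amino acid sensor GCN2 itself, which is named here after its value was seen, was at -0.0088 (adjusted p = 0.958). Among 7 bZIP partners and other stress factors none was called in edgeR, with Cebpb, a dimer partner of ATF4, at 0.45 (adjusted p = 0.0967) and Nupr1 at 0.27 (adjusted p = 0.235). Cebpb passed without the filter on low counts (adjusted p = 0.0315) and was at -0.042 with the exon length slope as a term.

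Around Phgdh and Psat1, 2 of 13 further serine, glycine and folate enzymes were higher and 0 lower, and 11 of the 13 had positive values. Both called genes, Gcsh and Amt, encode parts of the mitochondrial glycine cleavage system. Gcsh ranged from 28.3 to 43.6 CPM on vehicle (median 38.4) and from 35.7 to 58.5 CPM on rapamycin (median 51.1), with a log2 fold change of 0.41 (adjusted p = 0.0144), and its call was kept in 16 of 16 fits that left out 1 library but in 6 of 12 alternatives, where it fell to 0.20. Amt was higher at 0.25 (adjusted p = 0.0361), kept in 7 of 16 and in 4 of 12, where it fell to 0.12. Psph, the phosphatase that completes serine synthesis after Phgdh and Psat1, did not pass. It was likewise named after its value was seen and was at 0.10 (95% interval -0.16 to 0.35, adjusted p = 0.630).

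Of 9 amino acid transporters, 1 was higher and 3 were lower. Slc7a1, the transporter CAT1 for arginine and lysine, measured 61.3, 59.3, 72.7 and 73.8 CPM in FC1 to FC4, 69.2, 62.6, 64.0 and 73.1 CPM in MC1 to MC4, 43.6, 44.5, 56.5 and 45.7 CPM in FR1, FR2, FR4 and FR5, and 54.8, 54.1, 54.2 and 50.5 CPM in MR1 to MR4. Every rapamycin library lay below every vehicle library. Its log2 fold change was -0.42 with a standard error of 0.07 (adjusted p = 0.00879), kept in 16 of 16 fits that left out 1 library. Slc7a3, a related transporter of arginine and lysine, was lower at -0.55 (adjusted p = 0.0140, kept in 16 of 16), and Slc6a9, the glycine transporter GlyT1, at -0.50 (adjusted p = 0.0192, lost without FR1). Slc1a5, the glutamine transporter ASCT2, was higher at 0.82 (adjusted p = 0.0157, kept in 16 of 16) at a low level of 1.90 to 3.37 CPM on vehicle and 2.72 to 7.99 CPM on rapamycin, and it passed 1.5-fold. Over the 12 alternatives Slc7a1, Slc7a3 and Slc1a5 were called in 8 each and Slc6a9 in 7. At its weakest Slc7a1 was at -0.22 with exon length offsets, where it was still called, Slc7a3 at -0.098 in batch 2 alone, and with the exon length slope as a term Slc6a9 was at -0.16 and Slc1a5 at 0.27.

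Of 20 cytosolic aminoacyl-tRNA synthetases, which charge tRNAs with amino acids, 0 were higher and 4 lower. Iars was lower at -0.31 (adjusted p = 0.0169), kept in 16 of 16 fits that left out 1 library, Eprs at -0.27 (adjusted p = 0.0252), kept in 13 and lost without FR1, FR2 or MR2, Lars at -0.23 (adjusted p = 0.0218), kept in 14 and lost without FR1 or MC4, and Aars at -0.19 (adjusted p = 0.0454), kept in 3. Lars ranged from 44.1 to 55.7 CPM on vehicle and from 39.8 to 43.8 CPM on rapamycin, so the diets were apart. Eprs was at 0.0077 and Aars at -0.020 once the trend with exon length was removed. The calls of Iars, Lars, Eprs and Aars stood in 7, 6, 5 and 3 of 12 alternatives, and Iars fell to -0.095 with the exon length slope as a term and Lars to -0.12 in batch 2 alone. The median over the 20 was -0.07, and 14 had negative values.

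Of 14 other ATF4 targets 12 were tested, since Gdf15 and Fgf21 had at most 6 read pairs in a library. Ddit4, which restrains mTOR complex under stress, ranged from 19.2 to 46.7 CPM on vehicle (median 36.9) and from 38.6 to 73.4 CPM on rapamycin (median 51.9) and was higher at 0.57 (adjusted p = 0.0328), kept in 9 of 16 fits that left out 1 library. Gpt2, which makes alanine, was higher at 0.29 (adjusted p = 0.0224), lost without FR1 or FR2. Vldlr, a lipoprotein receptor, was lower at -0.37 (adjusted p = 0.0133, kept in 16 of 16), and Aldh18a1, which opens proline synthesis, at -0.27 (adjusted p = 0.0210, lost without FR2). Thus 2 of the 12 were higher and 2 lower, with a median of 0.02. Over the 12 alternatives Ddit4 was called in 6 and was at 0.10 in batch 2 alone, Gpt2 in 7 and at least 0.075, Vldlr in 7 and at -0.18 at its weakest, and Aldh18a1 in 5 and at -0.12.

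Related genes of the members' families were also counted, since copies of a gene can share reads. Of 6, Asnsd1 was higher at 0.59 (adjusted p = 0.0294) and passed 1.5-fold, at a low level of 1.86 to 3.27 CPM on vehicle and 2.21 to 7.75 CPM on rapamycin. It was highest in FR1, and its call was lost without FC2, FC3, FC4, FR1 or MR2, and in 7 of 12 alternatives, where it fell to 0.27. Sesn1 was at 0.22 (adjusted p = 0.0637). In females, in males and in their difference no gene of these lists passed in edgeR. Among 9 alternatives Slc7a1, Slc7a3, Slc6a9, Slc1a5 and Vldlr passed in females in 3 each, and Ddit4, Eif2ak3, Eprs, Gcsh, Gpt2 and Iars in 1, and Ddit4 passed in males in 1.

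**Figure D4:**
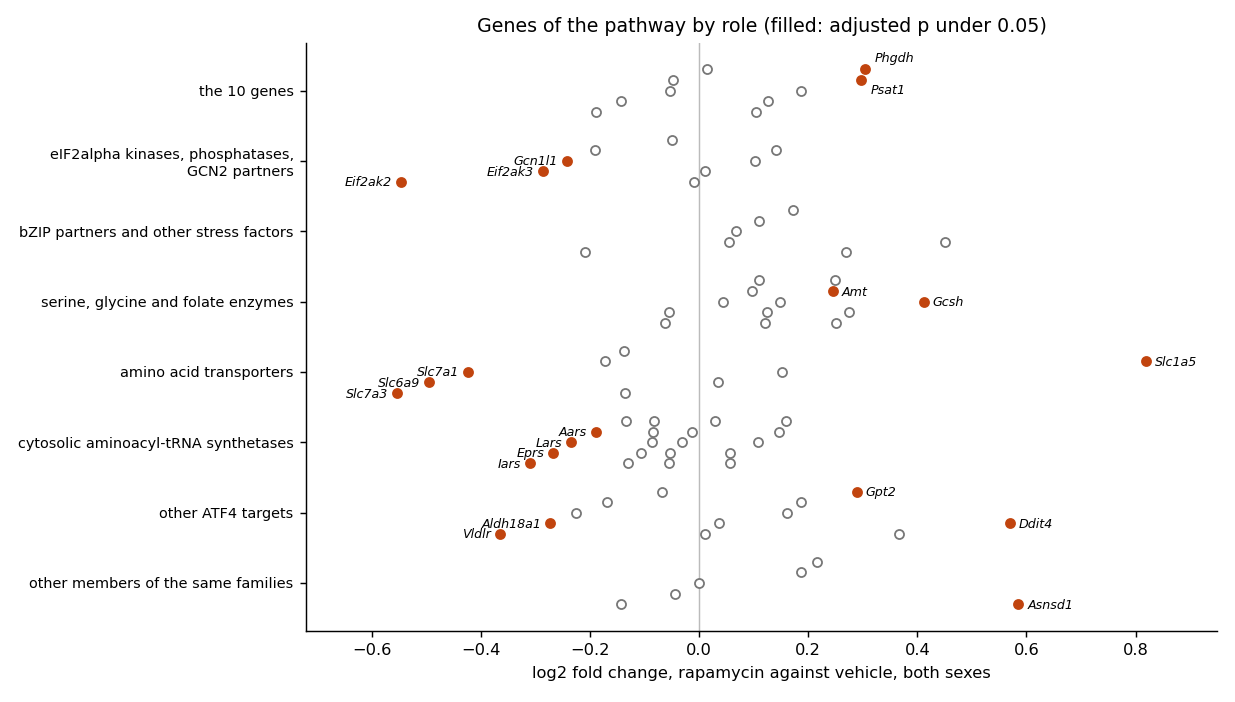
Log2 fold change, rapamycin against vehicle with both sexes in the fit, of the 10 genes and of 76 other tested genes of the pathway, each point a gene, by role. Filled orange points have an adjusted p under 0.05 and are named. Calls lie on the right for the serine, glycine and folate enzymes (Gcsh and Amt), on the left for the eIF2alpha kinases and the synthetases, and on both sides for the transporters and other ATF4 targets.

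Genes of other cell types were examined beside these lists. Choroid plexus markers were below 0 in point estimate in all 6 (median log2 fold change -1.52), of which Aqp1 was called (-1.73, adjusted p = 0.0382), and they summed to 13.3 to 1929 CPM on vehicle and 24.1 to 188 CPM on rapamycin. The highest sum was that of the single library MC4, while batch 1 reached at most 322 CPM. The medians of the sums were 146 CPM on vehicle and 73.6 CPM on rapamycin. How far MC4 carried the fold changes was not tested. The 6 excitatory neuron markers summed to 1946 to 2377 CPM on vehicle and 1501 to 2830 CPM on rapamycin. Of these 6, 1 was called lower and 0 higher, and 4 had negative and 2 positive values (median -0.12, lowest -0.46). Of 5 endothelial markers Ly6c1 was higher (0.59, adjusted p = 0.0250). None of 6 oligodendrocyte, 6 microglial, 5 striatal, 4 hippocampal and 4 blood markers was called in edgeR. Oligodendrocyte markers had positive values in females in 6 of 6 (median 0.55) and a difference between the sexes above 0 in 6 of 6 (median 0.63), and summed to 3499 to 5673 CPM in FC and 4019 to 9247 CPM in FR. For microglial markers that difference was below 0 in 6 of 6 (median -0.23). Blood markers had positive values with both sexes in 4 of 4 (median 0.72) and summed to 1.62 to 30.8 CPM on vehicle and 2.47 to 26.0 CPM on rapamycin. Their part in the values of the 10 genes was not tested.

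Whether the 10 genes rose and fell together from library to library was examined in the 11 libraries of batch 1, since 4 of the 10 genes differed between the batches and batch 2, with 5 libraries, is too small. Of 45 pairs, 29 had a positive Pearson r, with a median of 0.134. No pair passed at an adjusted p under 0.05 by Pearson's r or Spearman's rho. The closest pair was Atf4 and Shmt2, with r = 0.804 (two-sided permutation test with 100000 resamples, p = 0.00255, adjusted p = 0.115) and rho = 0.609 (permutation p = 0.0525, adjusted p = 0.413), and r was 0.807 without the 2 libraries farthest from the median of Atf4. Atf4 and Psat1 had r = 0.639 (permutation p = 0.0353, adjusted p = 0.369) and rho = 0.791 (permutation p = 0.00538, adjusted p = 0.242). Asns and Phgdh went opposite ways, with r = -0.735 (permutation p = 0.00978, adjusted p = 0.201) and rho = -0.564 (permutation p = 0.0765, adjusted p = 0.492), and r was -0.458 without 2 libraries. These values hold the difference between the diets. With the mean of each diet removed, r was -0.538 for Asns and Phgdh, 0.798 for Atf4 and Shmt2 and 0.645 for Atf4 and Psat1.

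Across all tested genes in the same 11 libraries, the genes most like each member in log2 CPM were Rab34 and 1700047M11Rik for Atf4 (r = 0.966 and 0.952), Ndufaf2 for Psat1 (0.959), Selenbp1 and Dnaic1 for Phgdh (both 0.944), and Dld and Tle4 for Asns (0.984 and 0.957). For the others they were Dcxr and Gstm7 for Ddit3 (0.938 and 0.921), Suv420h2 and Ncln for Shmt2 (0.955 and 0.953), Klk6 and Psd4 for Mthfd2 (0.930 and 0.906), Got1 and Rundc1 for Sesn2 (0.927 and 0.842), Isg20 and Acot6 for Chac1 (0.858 and 0.831), and Hdhd2 and Smim17 for Trib3 (0.882 and 0.878). These are descriptions over 11 libraries that share their diet groups and their exon length slopes. No member was among the 2 genes most like another member.

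All 10 genes are protein coding, and in the GENCODE annotation 1 of them, Shmt2, shares 32 exon bases (1.03%) with a gene on the other strand, Ndufa4l2. The counted exons of Shmt2 are shorter than the annotated ones (2305 against 3109 bases), so these 32 bases may not have been counted. For Atf4 and Ddit3 the counted span differs from the annotated one, and overlaps were searched in the annotated span only. Strand was not used in the counting, so reads on shared bases could not be assigned to either gene.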

How the data were processed

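Bulk poly(A) RNA of 16 cortex libraries was sequenced as 150 bp read pairs. The deposited values are raw counts of read pairs per gene: the authors checked reads with FastQC 0.11.9, trimmed them with Trimmomatic 0.39 and Trim Galore, aligned them to GRCm38 (mm10) with HISAT2 2.2.1 and counted them with featureCounts 2.0.3, without using strand and leaving out multi-mapping reads. Intervals and tests cover the spread between libraries. The tables deposited per group held 0 cells that differed from the table of all libraries.

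Groups came from the labels. Counts were filtered with filterByExpr (minimum count 10), scaled by TMM and tested with the quasi-likelihood test of edgeR 4.0.16 in R 4.3.3, with sex, batch and diet as terms, or with the 4 groups and batch for each sex, the interaction and the sexes on vehicle. P values were Benjamini-Hochberg adjusted over all 16553 genes, and a gene was called at an adjusted p under 0.05. CPM used TMM-scaled totals, log2 CPM a prior count of 2, and RPKM the exon lengths in the file. The tested genes held 99.9% of counts. Scripts were tested on simulated data.

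The alternatives were DESeq2 1.42.0, its size factors, no filter, no batch term, batch 1 alone, a replicate block, offsets or a term for exon length, a term for mitochondrial share, and each library left out. The fits without a sex term, on batch 2 alone and without FR1, FR2 and MR2 and the difference between batches were added after the data had been seen. The 10 genes, the pathway lists and the markers were chosen with earlier results of these data known. All 10 genes are named whatever their values. In each list the genes past the threshold are named (at most 5), or the 2 with the smallest p where fewer than 2 passed, and for each member the 2 genes most like it. Exceptions are said to be so in the text. A few items that these rules would name are not reported here. Promoters came from RefSeq (GRCm38.p6), other annotation from GENCODE.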

Additional observations from a re-analysis of the deposited data

Results flagged for a closer look

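Within the 4 libraries of a group, 3 of 40 groups of values held a library far from the others by Dixon's criterion, which chance alone meets in about 1 in 20 groups. Atf4 in MC4 measured 99.1 CPM with its nearest neighbour at 141 CPM, and Chac1 in MC4 measured 7.61 CPM with its nearest neighbour at 11.5 CPM. MC4 was the only male vehicle library of batch 2, and its choroid plexus markers had the highest sum of all libraries (1929 CPM). Atf4 in MR2 measured 179.8 CPM with its nearest neighbour at 123 CPM, and MR2 was among the 3 libraries with the lowest exon length slopes and the highest mitochondrial shares. The part of batch and of these measures in the 3 values was not tested.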

How the results depend on the processing

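With both sexes, DESeq2 called 2 of the 10 genes and 3003 of all genes. Phgdh and Psat1 were each called in 4 of 12 alternatives. The calls of Phgdh and Psat1 were lost without the batch term (0 of the 10 genes, 142 of all), with a term for the slope on exon length or for the mitochondrial share (0 and 0 each), in batch 2 alone (0 and 3) and without FR1, FR2 and MR2 (0 and 1). They were also lost in batch 1 alone, where 1 of the 10 genes (Asns, lower) and 1240 of all were called, with exon length offsets (1, Chac1, lower, and 828) and with the replicate block. In females DESeq2 called 2 and 1305, no filter 1 and 1678, batch 1 alone 1290 of all, and no batch term, the slope and the mitochondrial share 1 each. In males DESeq2 called 20 and no filter 526 of all genes, and for the interaction no filter called 87. Between the sexes on vehicle DESeq2 called 9, no filter 144, batch 1 alone 6, and no batch term, the slope and the mitochondrial share 1 each. Between batches 2 of the 10 genes were called with no filter, 1 with the slope (2083 of all) and 0 with the mitochondrial share (1703 of all), and for the difference of the diet effect between batches no filter called 145 genes. Gcn1l1 turned to 0.026 with exon length offsets and 0.013 with the slope, and Eprs to 0.0077, while Eprs between batches was -0.33 with the offsets. Beyond these settings the cause of each change was not tested.

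Leaving out 1 library at a time gave 0 to 3 of the 10 genes and 719 (without FR1) to 3352 (without FR4) of all genes for the diet with both sexes, 0 to 1 and 1 to 2104 (without FR4) in females, 0 to 1 of all in males, 0 to 6 for the sexes on vehicle, 1 to 4 of the 10 genes and 4265 to 6211 of all between batches, and 0 to 7 of all for the difference between batches. Ddit3 passed for the diet without MR3 only (adjusted p = 0.0383).

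The labels do not say that equal replicate numbers mark shared animals or days, and the libraries numbered 4 or 5 are those of batch 2. With group means removed 18 of 21 same-numbered pairs correlated over 0.1 (range -0.157 to 0.675), against 19 of 75 others, and with batch removed too 7 of 21 (range -0.433 to 0.366), against 24 of 75. As not every pair did so, the numbers were not taken as a pairing. With the replicate block 0 of the 10 genes and 1298 of all were called with both sexes (Phgdh adjusted p = 0.0587, Psat1 0.0643), 1 of all in males and 0 on vehicle.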
